A study of Mus musculus with 9 samples.

Results

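The genes described here encode the machinery by which newly made proteins enter the endoplasmic reticulum (ER) and fold there. They are Sec61b, Sec61a1, Canx, Calr, Hspa5, Hsp90b1, Pdia3, Pdia4, Pdia6 and P4hb, taken by symbol from both deposited tables. All 10 were found, as 24 assembled transcripts in each table, among 12388 gene symbols in all. The genes were chosen by symbol with earlier results of these data known, so the RPKM values of the 3 groups and the authors' calls count as used in the choice. Those values are given as a description and support nothing.

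RNA was sequenced from E12.5 retinas of the mouse strain CD-1, in 3 groups of 3 samples that differ at Neurog2, a proneural transcription factor gene. The knock-in-labelled group (KI) carried GFP at one Neurog2 allele and had a coding sequence knocked into the remaining one, the mutant-labelled group (Neurog2GFP/GFP) carried GFP at both, and the heterozygote group (Neurog2GFP/+) carried GFP at one. All groups therefore carry a GFP allele and none is wild type. Tissue came from GFP-positive optic cups, with no cell sort named, and no label says if the 3 samples of a group are from different litters, so the p-values measure only the spread between these samples, which may be technical.

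Each table gives RPKM, reads scaled by transcript length and library size, as 1 value per group. The samples of a group were merged by the authors, so the spread between samples is not printed and the sequencing depth of a sample is unknown. Error is taken into account by Cuffdiff's test in the authors' deposited table, and a transcript is called when its q there is 0.05 or less. The mutant-labelled group is in both tables, which were normalized separately, and its 2 values for a gene are both printed.

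Proteins bound for the cell surface, for secretion or for the ER itself pass through the Sec61 channel as they are made. Inside, the chaperones BiP (Hspa5) and GRP94 (Hsp90b1) hold unfolded chains, the lectins calnexin (Canx) and calreticulin (Calr) hold chains that carry sugars, and protein disulfide isomerases form and reshuffle disulfide bonds. Growing neurons rely on this route for their membrane, adhesion and guidance proteins. When unfolded protein accumulates, the unfolded protein response raises many of these genes together.

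Setting knock-in-labelled beside mutant-labelled retinas compares tissue with and without the knock-in, in the absence of an intact Neurog2 allele. These groups also differ in the number of GFP alleles, in the number in the sample titles and in sex-linked transcripts. The effect of the knock-in cannot be told apart from these. Of the 10 genes, 7 were higher in the knock-in-labelled group by summed RPKM and 3 were lower, and the median log2 ratio was 0.44. Over all 11930 genes with a finite ratio the median was -0.0021, and 49.7% were higher. In this comparison 4 of the 24 transcripts were called, all higher, against 0.756% of all transcripts of the table called in either direction and 0.47% called higher; they belong to Sec61b, Canx, Hspa5 and Pdia6. An unadjusted p under 0.05 was reached by 6 of the 24, against 7% of all transcripts. For Canx the summed level did not follow the called transcript. The 10 levels added up to 3022 RPKM in the knock-in-labelled group, against 2137 RPKM in the mutant-labelled group, of which Hsp90b1 made up 1247 and 765 RPKM.

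Mutant-labelled beside heterozygote retinas compare tissue without and with an intact Neurog2 allele. These groups also differ in the number of GFP alleles and in sex-linked transcripts, and the effect of losing the intact allele cannot be told apart from these. Here 7 of the 10 summed levels were higher and 3 lower, with a median log2 ratio of 0.09 and a range from -0.22 to 0.32. The median over all 12197 genes with a finite ratio was 0.03, and 54.7% of them were higher. Cuffdiff called 0 of the 24 transcripts, against 0.608% of the whole table, and 0 of the 24 had an unadjusted p under 0.05, against 5.18% of all transcripts; the lowest was 0.137, of a minor Pdia4 transcript.

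**Figure D1:**
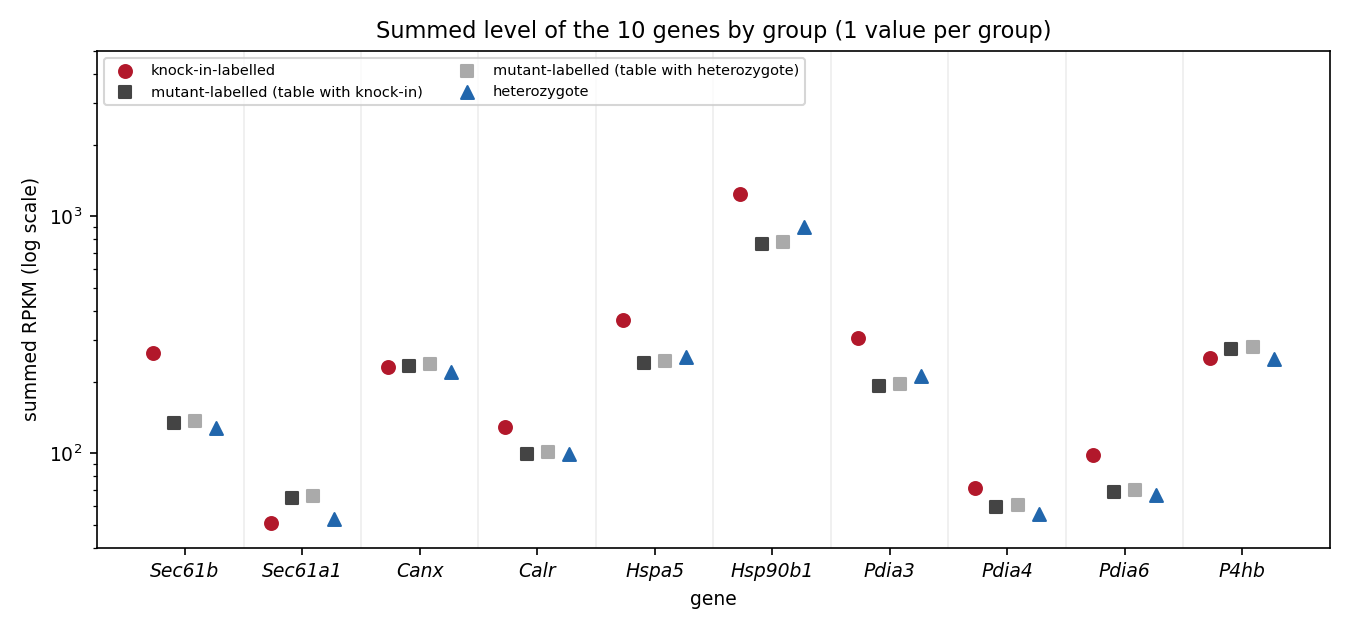
Summed RPKM of each gene (log axis) in knock-in-labelled retinas, mutant-labelled retinas (once from each table) and heterozygote retinas, with 1 value per group and no error bars because the authors merged the samples. Sec61b has the widest gap, 266 RPKM in the knock-in-labelled group against 135 RPKM in the mutant-labelled group; Sec61a1, Canx and P4hb are not higher in the knock-in-labelled group.

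Sec61b (mm10 chromosome 4, 47474658 to 47483242) encodes the small beta subunit of the Sec61 channel. It is listed as a single transcript, with 266 RPKM in knock-in-labelled retinas against 135 RPKM in mutant-labelled retinas, a log2 ratio of 0.98. In the table with heterozygotes it had 137 RPKM in mutant-labelled and 128 RPKM in heterozygote retinas, a log2 ratio of 0.10. The knock-in-labelled level was thus 1.97-fold the mutant-labelled level, the widest span of the 10 genes over the groups, and its q was 0.0104 in the authors' deposited table, the lowest that table allows.

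Sec61a1 (chromosome 6, 88503579 to 88518905) encodes the alpha subunit, which forms the pore of the channel. Its summed level was 51.0 RPKM in the knock-in-labelled group, against 64.7 RPKM in the mutant-labelled group, a log2 ratio of -0.34. The table with heterozygotes gave a sum of 65.9 RPKM in the mutant-labelled group and of 52.9 RPKM in heterozygotes. The sign of this ratio turned to that of Sec61b, with a value of 0.24, when the sum was limited to the most abundant transcript or to transcripts of at least 1 RPKM in both groups. Neither Sec61a1 transcript was called, and the difference between the channel genes was not tested.

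Of the lectin chaperones, Calr (chromosome 8, 84841850 to 84846934), the soluble one, had 129 RPKM in knock-in-labelled retinas against 99.6 RPKM in mutant-labelled retinas, a log2 ratio of 0.37. The heterozygote table gave 102 RPKM in mutant-labelled and 99.7 RPKM in heterozygote retinas. Canx (chromosome 11, 50293961 to 50325673), its membrane-bound relative, had 232 RPKM in the knock-in-labelled group against 234 RPKM in the mutant-labelled group, and the heterozygote table gave 239 RPKM in the mutant-labelled group against 220.1 RPKM in heterozygotes. The summed levels of Canx lay within 1.08-fold of each other in each table. Neither Calr transcript was called in either table.

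Hspa5 (chromosome 2, 34771970 to 34777547) encodes BiP, the ER chaperone of the Hsp70 family. It had 366 RPKM in knock-in-labelled retinas against 242 RPKM in mutant-labelled retinas, a log2 ratio of 0.60. In the other table it had 246 RPKM in mutant-labelled and 256 RPKM in heterozygote retinas. Its main transcript carried the call, with 303 RPKM in knock-in-labelled against 202 RPKM in mutant-labelled retinas (q = 0.0320 in the authors' deposited table), and all 3 of its transcripts had a higher level in the knock-in-labelled group.

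Hsp90b1 (chromosome 10, 86685601 to 86705509), which encodes GRP94, the ER member of the Hsp90 family, had the highest level of the 10 genes in every group. Its summed RPKM was 1247 in the knock-in-labelled group against 765 in the mutant-labelled group, a log2 ratio of 0.71. In the other table it was 779 in the mutant-labelled group and 906 in heterozygotes, a log2 ratio of -0.22. This ratio is larger than that of Hspa5, yet no Hsp90b1 transcript was called: the more abundant had 805 RPKM against 433 RPKM with p = 0.310, and the other 441 RPKM against 332 RPKM with p = 0.0140 and q = 0.402, both in the authors' deposited table.

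The 4 disulfide isomerase genes differed among themselves. Pdia3 (chromosome 2, 121392631 to 121438687), whose product ERp57 works with calnexin and calreticulin, had 308 RPKM in knock-in-labelled retinas against 193 RPKM in mutant-labelled retinas, a log2 ratio of 0.67. The heterozygote table gave Pdia3 197 RPKM in mutant-labelled and 211 RPKM in heterozygote retinas. Pdia6 (chromosome 12, 17266545 to 17329359), which encodes P5, an isomerase that associates with BiP, had 98.8 RPKM in knock-in-labelled against 69.1 RPKM in mutant-labelled retinas. Its single transcript was called, with a log2 ratio of 0.51 and q = 0.0363 in the authors' deposited table, and in the other table it had 70.5 RPKM in mutant-labelled and 66.8 RPKM in heterozygote retinas. Pdia3 had the larger ratio of these genes but none of its 3 transcripts was called, the lowest q being 0.703.

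Pdia4 (chromosome 6, 47796141 to 47813430), which encodes ERp72, had 71.4 RPKM in the knock-in-labelled group against 59.6 RPKM in the mutant-labelled group, a log2 ratio of 0.26. The values in the heterozygote table were 60.8 RPKM in the mutant-labelled group and 55.7 RPKM in heterozygotes. P4hb (chromosome 11, 120560298 to 120573253) encodes protein disulfide isomerase itself, which is also a subunit of collagen prolyl 4-hydroxylase. It had 254 RPKM in the knock-in-labelled group against 276 RPKM in the mutant-labelled group, and the heterozygote table gave 281 RPKM in the mutant-labelled group against 249.8 RPKM in heterozygotes. Neither gene had a called transcript, and P4hb was the isomerase with a negative log2 ratio in the knock-in-labelled group, of -0.12.

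By level per length in the mutant-labelled group, the order in the table with the knock-in was Hsp90b1, P4hb, Hspa5, Canx, Pdia3, Sec61b, Calr, Pdia6, Sec61a1 and Pdia4, the highest at 765 RPKM and the lowest at 59.6 RPKM. Among knock-in-labelled levels Sec61b (266 RPKM) stood above Canx and P4hb, and Sec61a1 (51.0 RPKM) was the lowest. Without a value per sample it cannot be said which neighbours in this order differ beyond their spread.

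The deposited tables list assembled transcripts without their exons, and their numbers differ between the tables, so transcripts were followed across tables by the shared mutant-labelled value. All 24 could be paired one to one in this way. A gene was marked where a transcript with at least 1 RPKM in either group differed by 1.5-fold or more, or was called, while the sum over the gene differed by less than 1.2-fold. By this rule 2 of the 8 members with several transcripts were marked in knock-in-labelled against mutant-labelled retinas, Canx and Pdia4, against 44.2% of all genes with several transcripts. In mutant-labelled against heterozygote retinas 3 of 8 were marked, Canx, Hspa5 and Pdia4, against 41.7% of all such genes. A moving transcript under a steady sum was thus no more frequent among these genes than in the tables at large, and the rule itself used these values.

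Canx shows the pattern most plainly. Its main transcript had 171 RPKM in knock-in-labelled against 105 RPKM in mutant-labelled retinas, a log2 ratio of 0.70 with q = 0.0104 in the authors' deposited table. The next had 48.1 RPKM in knock-in-labelled against 91.8 RPKM in mutant-labelled retinas, and the third was listed at 0 against 20.8 RPKM. The called gain of the main transcript was offset in the sum by lower values of others, none of which was called. The main transcript made up 73.9% of the Canx sum in the knock-in-labelled group, 45.0% in the mutant-labelled group and 54.4% in heterozygotes.

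The third Canx transcript was also listed at 0 in heterozygotes, against 21.2 RPKM in the mutant-labelled group, with p = 0.182 in the authors' deposited table. It was therefore listed above 0 in the mutant-labelled group and at 0 in both others, without passing the test in either table. Sec61a1 had a like case: its minor transcript had 0.0641 RPKM in knock-in-labelled against 21.5 RPKM in mutant-labelled retinas (p = 0.235 in the authors' deposited table), while the main one had 50.9 RPKM against 43.2 RPKM. The lower Sec61a1 sum in the knock-in-labelled group thus came from the minor transcript, and the main transcript had a log2 ratio of 0.24.

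**Figure D2:**
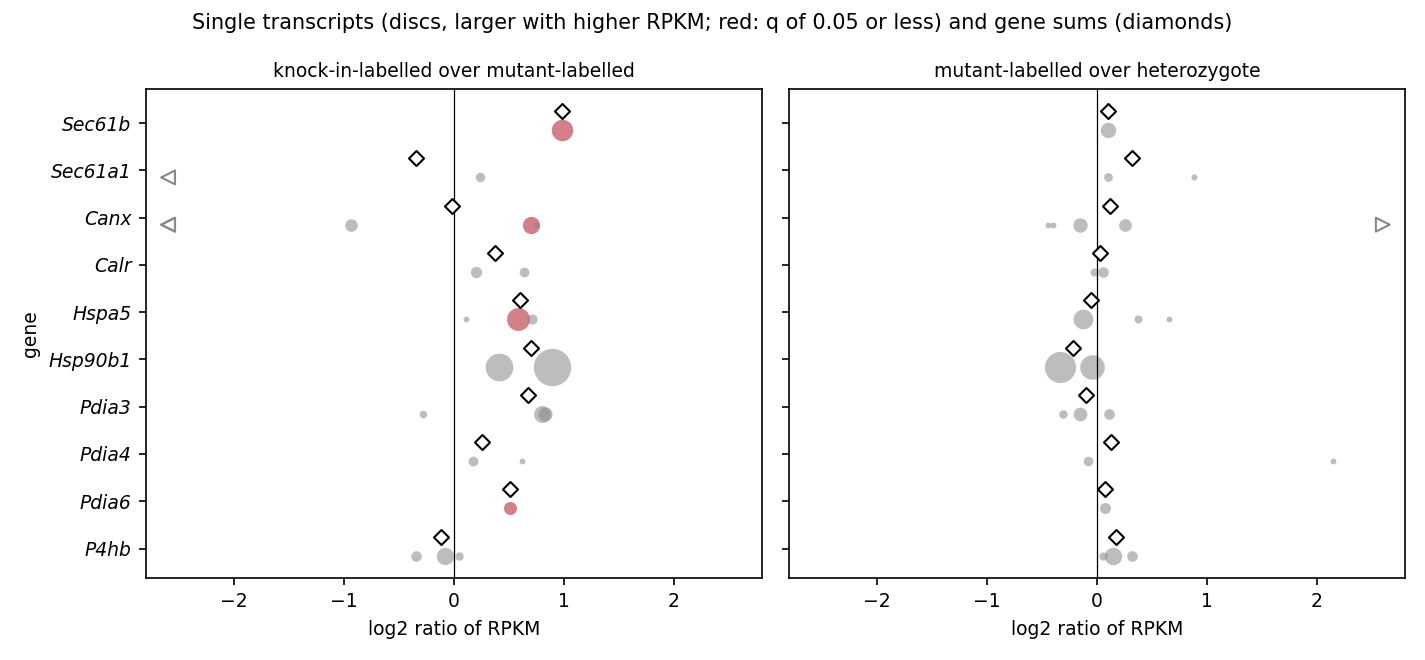
Log2 ratio of RPKM for each transcript (discs, larger with higher RPKM, red where q is 0.05 or less) and, drawn just above, for the sum over each gene (diamonds), for knock-in-labelled over mutant-labelled retinas on the left and mutant-labelled over heterozygote retinas on the right. Arrows mark values beyond the axis or with a group at 0, 2 of them on the same point for Canx on the left; the 4 red discs are all above 0 in the left panel and the right panel has none.

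The other marked genes were Pdia4 and Hspa5. The Pdia4 sum in knock-in-labelled retinas was just under 1.2-fold the mutant-labelled one, and its minor transcript had 15.5 RPKM against 10.1 RPKM. That transcript had 10.2 RPKM in mutant-labelled against 2.32 RPKM in heterozygote retinas, while the sum differed by 1.09-fold, so its share of the gene was 21.7% in knock-in-labelled, 16.9% in mutant-labelled and 4.16% in heterozygote retinas. The Hspa5 transcript that moved had 3.04 RPKM in mutant-labelled and 1.93 RPKM in heterozygote retinas. Just outside the limit was Sec61a1, whose summed log2 ratios were -0.34 and 0.32. Each of the 8 members with several transcripts kept the same transcript as the most abundant in every group. In Hsp90b1, Pdia3 and P4hb that transcript made up 64.6%, 53.9% and 63.9% of the gene in the knock-in-labelled group.

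**Figure D3:**
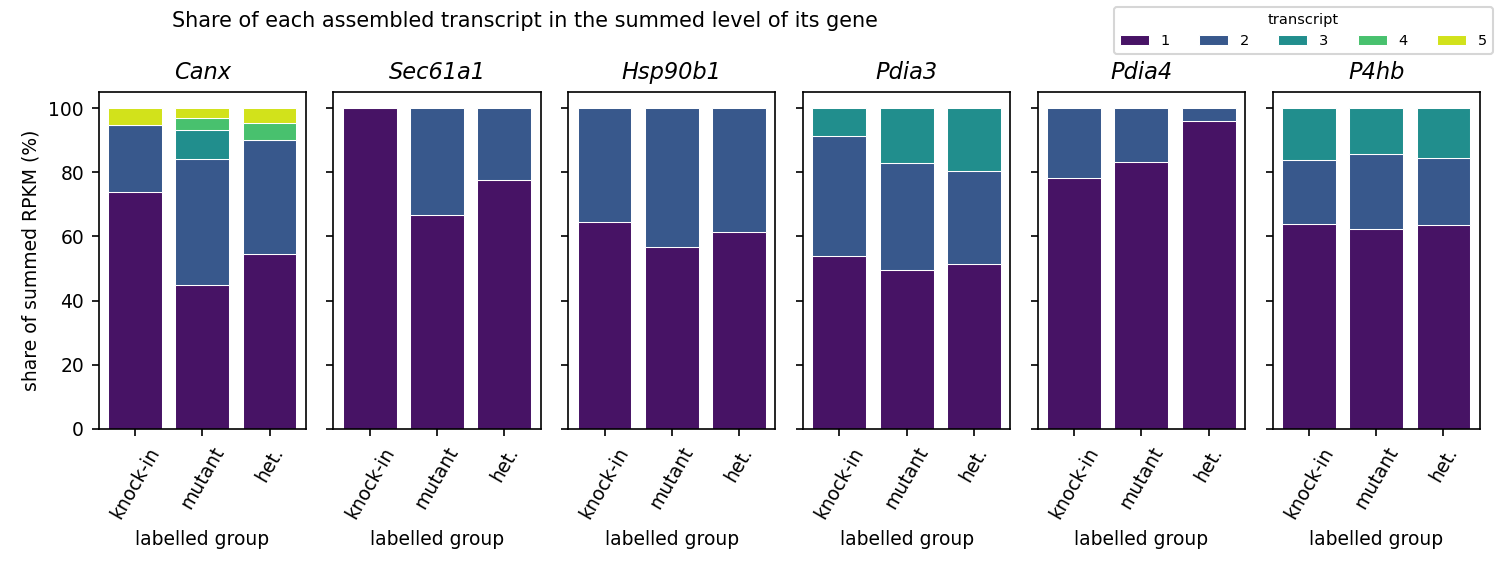
Share of each assembled transcript in the summed RPKM of 6 genes, in knock-in-labelled, mutant-labelled (table with the knock-in) and heterozygote retinas, numbered from the highest to the lowest mutant-labelled level. The main Canx transcript takes 73.9%, 45.0% and 54.4% of its gene, and the minor Sec61a1 transcript 0.126%, 33.2% and 22.5%.

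The other genes of the ER pathway were read from 8 lists. In knock-in-labelled against mutant-labelled retinas, 0 of their 118 measured genes were called by Cuffdiff in either direction, against 1.67% of all genes, and 16 had a transcript with an unadjusted p under 0.05, against 14.6% of all genes. The summed level was higher for 66 and lower for 52, with a median log2 ratio of 0.04. In mutant-labelled against heterozygote retinas 0 of 120 were called, against 1.34% of all genes, and 9 had a transcript with an unadjusted p under 0.05, against 10.9% of all genes; 76 were higher and 44 lower, with a median of 0.09.

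For entry into the ER, 14 of 23 measured genes of the translocon and of signal recognition were higher in the knock-in-labelled group, with a median log2 ratio of 0.10. Sec61g, which encodes the gamma subunit of the channel, had 282 RPKM in knock-in-labelled against 214 RPKM in mutant-labelled retinas, a log2 ratio of 0.40 (q = 0.568 in the authors' deposited table). Sec11a, a signal peptidase subunit gene, had 253 RPKM in knock-in-labelled against 236 RPKM in mutant-labelled retinas. At the other end of the list Ssr4, a subunit of the translocon-associated complex, had 31.4 RPKM against 37.2 RPKM. The list's highest ratio, that of Sec61g, was below that of Sec61b. Of the 12 oligosaccharyltransferase genes, which attach sugars to the entering chain, 7 were higher and 5 lower, from -0.25 for Dad1 to 0.36 for Stt3a.

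Among the other chaperones and cochaperones of the ER, 10 of 16 were higher in the knock-in-labelled group, with a median of 0.09. Ppib, which encodes the ER prolyl isomerase cyclophilin B, had 112 RPKM in knock-in-labelled against 73.0 RPKM in mutant-labelled retinas, a log2 ratio of 0.62 (q = 0.402 in the authors' deposited table). Dnajb11, a cochaperone of BiP, had 148 RPKM in knock-in-labelled against 134 RPKM in mutant-labelled retinas, and Dnajb9, another, had 7.22 RPKM against 9.46 RPKM. The BiP cochaperones named here thus had ratios of both signs. Of 15 other oxidoreductases 9 were higher (median 0.17), with Qsox2 highest at a log2 ratio of 0.44, and of 12 collagen folding genes 9 were higher (median 0.16). Serpinh1, the collagen chaperone Hsp47, had 70.2 RPKM in knock-in-labelled against 53.7 RPKM in mutant-labelled retinas.

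The next lists hold what the ER does when folding fails. Of 15 measured genes of the unfolded protein response 8 were higher and 7 lower in the knock-in-labelled group, with a median of 0.08. Atf4, a transcription factor of that response, had 107 RPKM in knock-in-labelled against 121 RPKM in mutant-labelled retinas, and Ppp1r15a, which restores translation after it, had 6.32 RPKM against 8.98 RPKM. The highest was Mbtps2, a protease that releases ATF6, with a log2 ratio of 0.48, and none of these was called. Of 17 genes of ER-associated degradation 6 were higher and 11 lower (median -0.05), from -0.37 for Ufd1l to 0.22 for Derl2. The glucosidases and other genes of the lectin cycle, 8 in number, had a median of -0.05.

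**Figure D4:**
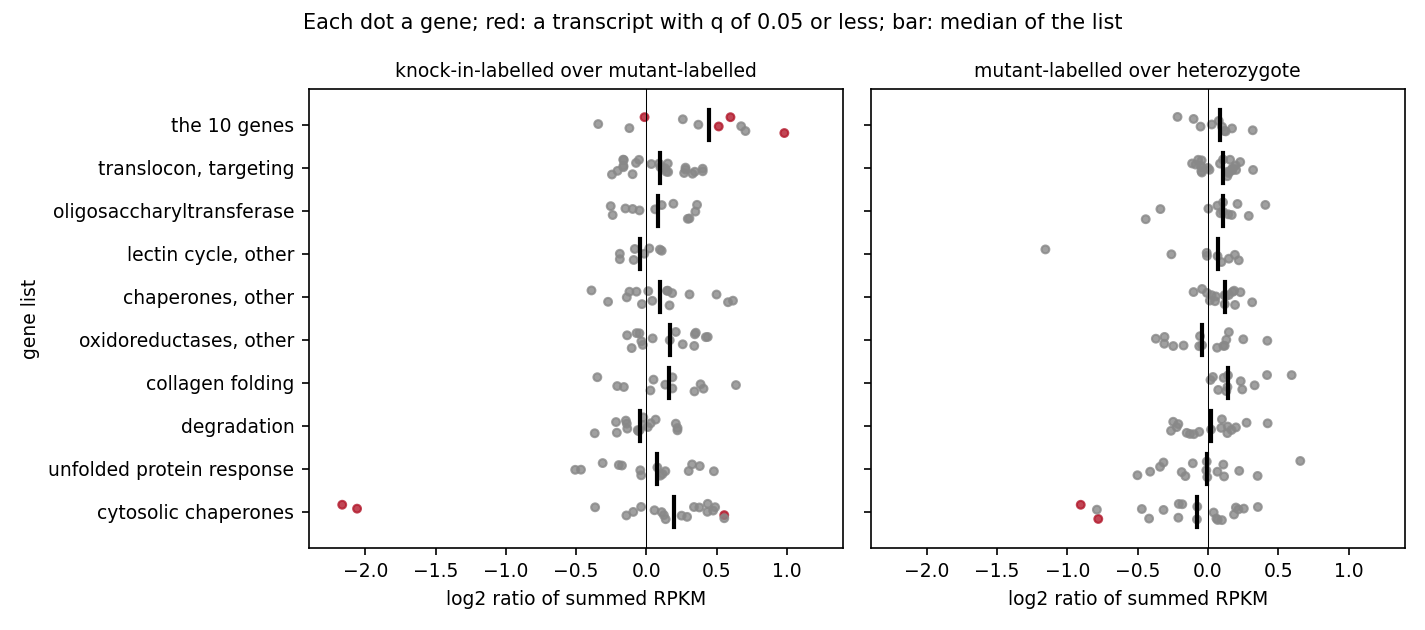
Log2 ratio of summed RPKM for each gene (dots, red where a transcript was called) and the median of each list (bars), for knock-in-labelled over mutant-labelled retinas on the left and mutant-labelled over heterozygote retinas on the right. In the left panel the 10 genes have a median of 0.44, and the medians of the 8 other ER lists lie between -0.05 and 0.17.

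Chaperones of the cytosol and mitochondria were read beside those of the ER. In knock-in-labelled against mutant-labelled retinas 14 of 20 were higher (median 0.19), with 1 gene called higher and 2 lower, against 1.03% and 0.634% of all genes. Dnaja1, a cochaperone of cytosolic Hsp70 proteins, had 543 RPKM against 370 RPKM (the authors' deposited table gives q = 0.0463), and Hspd1, the mitochondrial chaperonin, had 362 RPKM against 246 RPKM without a call. The stress-inducible Hspa1a and Hspa1b, near-identical neighbours whose reads may not be separable, had 0.835 and 0.905 RPKM in knock-in-labelled retinas, against 3.74 and 3.77 RPKM in mutant-labelled retinas. These 2 relatives of Hspa5 were thus lower where Hspa5 was higher, at levels below 1 RPKM in the knock-in-labelled group. Other genes of the list went the other way. Dnajb1, named after its values were seen, had 56.9 RPKM in knock-in-labelled against 40.9 RPKM in mutant-labelled retinas, without a call. In mutant-labelled against heterozygote retinas Dnajb1 had 41.7 RPKM against 71.6 RPKM and Hspa1a 3.81 RPKM against 7.14 RPKM, both called (q = 0.0109 in the authors' deposited table).

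The groups also differed in markers of other cells. In knock-in-labelled against mutant-labelled retinas, 10 of 10 measured pigment epithelium markers were higher (summed level 95.6 RPKM against 20.3 RPKM), as were 9 of 10 lens markers (157 RPKM against 58.7 RPKM), 7 of 7 blood markers (131 RPKM against 35.1 RPKM) and 6 of 6 markers of periocular mesenchyme (33.4 RPKM against 19.4 RPKM). In this order 6, 3, 2 and 2 of them were called higher, against 1.03% of all genes. A transcript is listed here only if its higher group reached 1.04 RPKM. Some of these markers were thus measured only through their knock-in-labelled value, which raises the counts. In mutant-labelled against heterozygote retinas only 5 of the 12 pigment epithelium markers were measured. Foxe3, a defining lens factor, was listed at 1.05 RPKM in knock-in-labelled retinas, next to that floor, and at 0 in mutant-labelled retinas. Of 9 immediate early genes 8 were lower (95.1 RPKM against 221 RPKM), with 7 called, against 0.634% of all genes called lower. Fos had 0.536 RPKM in knock-in-labelled against 31.8 RPKM in mutant-labelled retinas, and Egr1 had 1.03 RPKM against 31.8 RPKM. Btg2 was the 1 that was higher, at 42.4 RPKM against 40.1 RPKM. The relation of these genes to the levels of the ER genes was not tested. Neuron markers were higher in 11 of 11 genes (615 RPKM against 456 RPKM), but only 1 of them, Pou4f2, was called, against 1.03% of all genes called higher. The 12 retinal progenitor markers, which define the labelled tissue, summed to 3099 RPKM against 3179 RPKM. The part of these cells in the levels of the 10 ER genes was not tested, and in such bulk tissue more cells of a type and more RNA per cell cannot be told apart.

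In mutant-labelled against heterozygote retinas the neuron markers were lower in 11 of 11 genes (465 RPKM against 958 RPKM), 8 of them called against 1.09% of all genes called lower. The retinal progenitor markers were higher in 12 of 12 genes (3240 RPKM against 2688 RPKM), 0 of them called against 1.34% of all genes called in either direction. The 10 ER genes summed to 2178 RPKM against 2245 RPKM, of which Hsp90b1 made up 779 and 906 RPKM, and 7 of the 10 were higher. Whether the ER levels follow the make-up of the tissue was not tested. Sex and the number in the sample titles move with the groups as well. The Y-linked Kdm5d had 19.3 RPKM in knock-in-labelled retinas, was listed at 0 in mutant-labelled retinas and had 12.8 RPKM in heterozygote retinas. The X-linked Xist had 174 RPKM in knock-in-labelled against 496 RPKM in mutant-labelled retinas. In the other table it had 505 RPKM in mutant-labelled against 184 RPKM in heterozygote retinas. None of the 10 genes lies on X or Y, but genes elsewhere can differ by sex. This was not tested, and sex cannot be told apart from the labels in either comparison. The titles carry 311 for the knock-in-labelled samples and 466 for both other groups, and what that number marks cannot be told apart from the knock-in label. Neurog2 itself had 112 RPKM in knock-in-labelled against 35.5 RPKM in mutant-labelled retinas, and the heterozygote table gave 36.2 RPKM in mutant-labelled against 30.2 RPKM in heterozygote retinas. Because the mutant-labelled level was not below that of heterozygotes, and these tables do not separate coding from untranslated reads, the groups are named by their labels.

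The sequence upstream of the starts was not read when the genes were chosen by symbol. The unfolded protein response nevertheless raises many of these genes, and the element searched for is named for ER stress. Its frequency among them is therefore not independent of the choice and is given as a description that supports nothing. The ER stress response element (ERSE), known in human and mouse as a site of NF-Y and ATF6, reads CCAAT and CCACG with 9 bases between them. It was searched on both strands in RefSeq windows (GRCm38.p6) from 250 bases before to 50 bases after each start, which 9 of the 10 genes have. It was present in 5 of these 9, against 0.119% of 32851 windows. Without its last base, the final G, it was present in 7 of 9, against 0.365%. The stretches around each match are given so that the element can be read in each gene; capitals mark the fixed letters of the element, which runs on the other strand (as CGTGG and ATTGG) in Calr, Pdia4 and the later of the Hsp90b1 elements.
Hspa5 (chr2:34772020-34772048, plus strand): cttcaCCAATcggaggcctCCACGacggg
Canx (chr11:50325770-50325848, minus strand): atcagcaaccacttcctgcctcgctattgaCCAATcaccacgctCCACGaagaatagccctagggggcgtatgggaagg
Pdia6 (chr12:17266461-17266539, plus strand): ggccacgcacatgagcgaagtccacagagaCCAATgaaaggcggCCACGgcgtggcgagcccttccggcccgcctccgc
Calr (chr8:84847044-84847122, minus strand): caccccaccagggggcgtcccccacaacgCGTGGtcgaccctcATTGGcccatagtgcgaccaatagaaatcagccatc
Hsp90b1 (chr10:86705527-86705661, minus strand): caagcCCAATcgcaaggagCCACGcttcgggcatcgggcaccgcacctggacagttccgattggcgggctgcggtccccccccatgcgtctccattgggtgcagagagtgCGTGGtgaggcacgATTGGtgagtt
Pdia3 (chr2:121413868-121413896, plus strand): cgcagCCAATcggcggctgCCACactgcg
Pdia4 (chr6:47813571-47813649, minus strand): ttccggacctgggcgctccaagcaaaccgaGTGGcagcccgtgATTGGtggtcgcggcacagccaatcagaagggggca

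The full element began 65 bases upstream of the RefSeq start in Hspa5, 98 in Pdia6, 145 in Canx and 162 in Calr, and Hsp90b1 held it at 212 and at 107 bases. The authors' loci of Hspa5 and Pdia3 begin before these RefSeq starts, and the stretches printed for both genes lie inside them. Sec61b, which had the largest ratio of the 10, and P4hb held neither form in this window. A related element, ERSE-II (ATTGG and CCACG with 1 base between them), and TGACGTGG, a site of the unfolded protein response, were in 0 of 9, against 0.0365% and 0.676% of all windows. A match is a run of letters and not a measured site.

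Genes other than the members were read for the full element as well. Of all measured genes with a window, 13 held it in the table of knock-in-labelled against mutant-labelled retinas. Without the members 8 remained, with 4 higher in the knock-in-labelled group, a median log2 ratio of 0.03 and quartiles of -0.19 and 0.18. The median over all 9023 measured genes with a window was -0.01. Of the 8, 1 was called higher, against 0.986% of the 9023; it is Hnrnpa3, an RNA-binding protein gene named after its values were seen. In the 8 other ER lists the full element was found upstream of Creld2, Dnajc3 and Syvn1, whose levels in knock-in-labelled retinas were 24.3, 11.9 and 20.7 RPKM, against 21.9, 10.6 and 17.8 RPKM in mutant-labelled retinas.

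**Figure D5:**
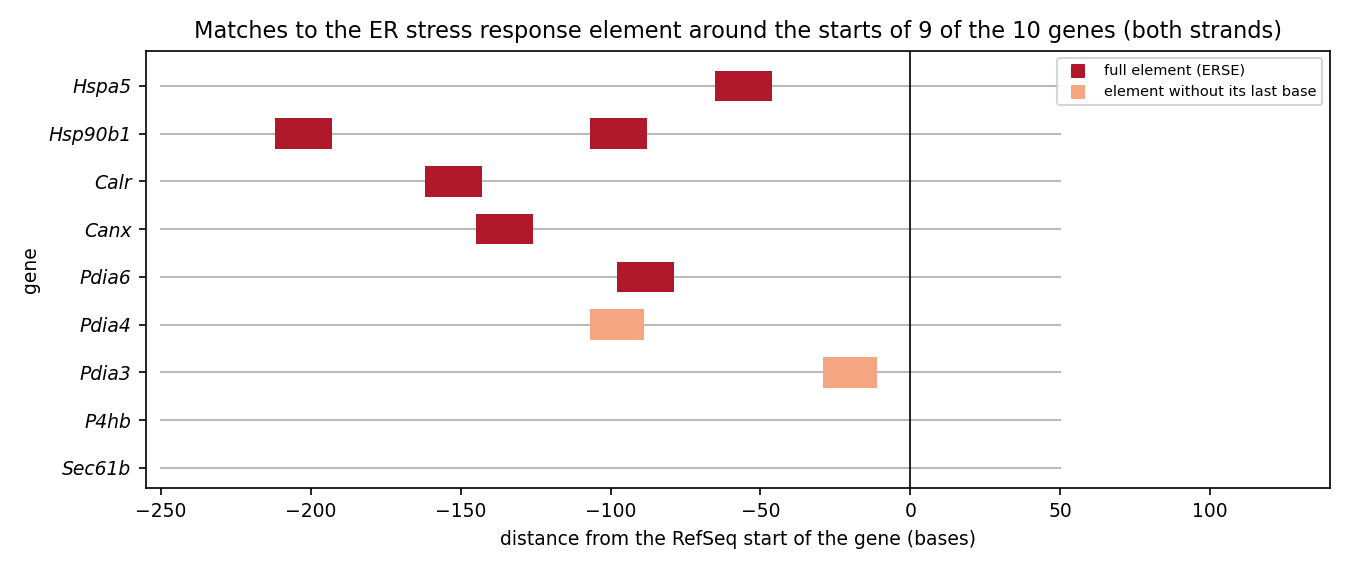
Place of the ER stress response element, in full (dark) and without its last base (light), from 250 bases before to 50 bases after the RefSeq start of 9 genes, on either strand. The full element begins between 65 and 212 bases upstream in Hspa5, Hsp90b1, Calr, Canx and Pdia6, and neither form is in the windows of P4hb and Sec61b.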

How the data were processed

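Per the labels' protocols, total RNA from E12.5 retinas was taken up with an RNeasy Micro kit and made into TruSeq libraries. Bowtie2, Cufflinks, Cuffdiff and mm10 are named in the submitters' processing notes, without versions. Per the file headers, the authors deposited 1 RPKM value per group and assembled transcript, with a p-value and a q-value, in a table for each comparison (27311 and 26586 transcripts). Each listed transcript reached 0.906 and 1.04 RPKM in its higher group. The deposited q-values equalled a Benjamini-Hochberg adjustment over all rows to within 5.26e-07, and the smallest possible q was 0.0109 and 0.0104.

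RPKM was summed over the transcripts of a gene symbol, and log2 ratios were computed without a pseudocount (Python 3.11.15, pandas 2.3.3). No test was refitted, since only group values were used; p and q are Cuffdiff's for single transcripts, and no test exists for a sum. Transcripts were paired across tables where mutant-labelled values differed by the tables' median shift of -0.03 (log2), within 0.05; 99.0% of 4894 single-transcript genes lay within it. Adjustment, pairing and motif search were tested on simulated data. Members and lists were chosen with earlier results of these data known. Of each list the text may name called genes, the 2 most abundant and the largest rise and fall; others are said to be chosen later, except those with the upstream element, named for it. Loci are the authors', counted from base 1, and can hold neighbouring genes; the GENCODE annotation (M21) is of the same assembly. Some items are not reported here.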

Additional observations from a re-analysis of the deposited data

How the results depend on the processing

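The authors merged the samples of each group, so no sample could be left out and sampling error and depth cannot be read from these values. No paired analysis was possible because the columns hold group values that carry no replicate number. The 4 calls among the ER genes in knock-in-labelled against mutant-labelled retinas also numbered 4 at a q of 0.1 and over transcripts with at least 1 RPKM in both groups, and 0 at a q of 0.01, which is below the smallest q of the table. In mutant-labelled against heterozygote retinas the count was 0 under each of these settings. The median log2 ratio of 0.44 became 0.55 with the most abundant transcript of each gene in place of the sum, and the median of 0.09 in the other comparison became -0.0098; with a pseudocount of 1 RPKM, centring on all genes or transcripts of at least 1 RPKM in both groups they moved by less than 0.1. Genes with a moving transcript and a steady sum in the knock-in-labelled comparison numbered 1 in place of 2 when the transcript had to differ by 2-fold, and 1 when the sum had to stay within 1.1-fold. The summed Canx ratio in that comparison, -0.01, became 0.70 with the most abundant transcript and 0.18 with transcripts of at least 1 RPKM in both groups, since both settings leave out transcripts with lower values in the knock-in-labelled group. The summed Sec61a1 ratio there, -0.34, became 0.24 under both, which leave out its minor transcript. Of the single-gene ratios under the 4 settings, 36 of 40 kept their direction in each comparison.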

Other observations

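By the distance between the log2 ratios of both comparisons, the genes nearest to Sec61b among 6671 with at least 10 RPKM in every group were Ldha (a lactate dehydrogenase subunit; distance 0.06), Ap1s1 (a subunit of a clathrin adaptor; distance 0.06) and Glb1l (distance 0.10). Their log2 ratios in knock-in-labelled over mutant-labelled retinas were 0.95, 0.95 and 0.89. This likeness rests on 3 group values, of which the mutant-labelled one enters both ratios, and is given as a description.

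Some loci of the ER genes hold other annotated genes. Mir704, a microRNA gene inside the Pdia4 locus on the same strand, was listed at 152 RPKM in knock-in-labelled against 40.7 RPKM in mutant-labelled retinas, and in the other table at 41.5 RPKM in mutant-labelled against 100.2 RPKM in heterozygote retinas. Neither difference was called (q = 0.866 and 0.995 in the authors' deposited tables), and reads of the host gene cannot be told apart from those of so short a gene. Catsper2, listed in the Pdia3 locus, had 3.46 RPKM in knock-in-labelled against 2.82 RPKM in mutant-labelled retinas. The printed Pdia6 locus runs to 17329359, past the annotated end of the gene at 17284770, and holds Atp6v1c2. The printed loci of Hsp90b1 and Pdia3 also reach beyond the annotated genes, whose lowest bases are 86690209 and 121413775.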
